A study of Saccharomyces cerevisiae with 22 samples.

Results

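Budding yeast (Saccharomyces cerevisiae) strains whose ribosomal DNA (rDNA) arrays hold 118, 129, 147 or 156 repeats were compared with strains at both ends of the range, short arrays of 72 and 84 repeats and long arrays of 224 and 237 repeats. A gene that peaks or dips at mid-length arrays gives no slope against repeat number, so the 4 mid-length strains were set against all 4 extreme strains. These are 8 of the 12 strains of the series and 16 of its 22 libraries, taken by their labelled repeat number. Each strain has 1 library of polyA-selected RNA and 1 of total RNA. All polyA libraries compared are labelled as of normal polyA recovery. All strains carry the genotype MATa his3d1 lyp1d0 can1d::STE2pr-spHIS5, and no treatment is given. Each array length is therefore 1 strain, and the spread between strains holds whatever else differs between them. The labels do not say that the libraries of a strain came from separate cultures. By their names the mid-length strains belong to the series CGY20 (118 and 147) and CGY24 (129 and 156). The extremes belong to CGY24 (72), CGY29 (84), CGY28 (224) and CGY20 (237).

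The rDNA array on chromosome XII repeats the genes for ribosomal RNA in tandem, and only part of the copies is transcribed by RNA polymerase I at a time. The Sir2 histone deacetylase acts in silencing at the rDNA. Replication forks are stopped in each repeat by the Fob1 protein, so that copy number can change by recombination. The rRNA made there is folded, modified and cut with the help of small nucleolar RNAs (snoRNAs) and joined by ribosomal proteins made from polyA mRNA.

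Depth in total RNA was 6495626 to 7934346 reads a library, and the rDNA took 93.5% to 94.4% of them. Outside it, 377986 to 426663 reads were left in the mid-length libraries and 412475 to 465645 in the extreme ones, and the part of this difference in depth in the results was not tested. PolyA values are in TPM, a relative abundance corrected for transcript length that carries no information on depth. Markers of MATa cells summed to 12923 to 16208 TPM in the mid-length strains and 14472 to 17211 TPM in the extreme ones, with none of the 7 at 0. The 4 markers of alpha cells summed to 15.0 to 17.2 TPM over all 8 strains, and the 7 of diploid or sporulating cells to 12.8 to 20.0 TPM, with 2 of these 7 under 1 TPM in every strain and none at 0. LYP1 and CAN1, both deleted in the genotype, were at 0 TPM in all 8 strains. In total RNA, LYP1 had at most 1.11 normalised reads. CAN1, however, had 24 to 33.2 in all 8 strains, about the level of the median feature tested (24), and where in the locus these reads lie was not tested. HIS3, of which the his3d1 allele removes a part, kept 86.0 to 103 TPM.

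No gene passed the test in polyA RNA. The difference between mid-length and extreme strains (log2 of TPM + 1, mid-length minus the mean of short and long) was tested over 5536 genes with limma, and 0 genes (0%) passed at an adjusted p of 0.05. The lowest adjusted p was 0.928. Before adjustment, 104 genes higher in mid-length strains (1.88% of those tested) and 161 lower (2.91%) had a p under 0.05. That split turned with the scaling: 161 of 315 such genes were higher with TMM factors and 161 of 292 after quantile normalisation. For the median gene the 95% interval reached 0.18 log2 units to either side. All 4 mid-length strains lay above all 4 extreme strains for 53 genes (0.957%) and below them for 140 (2.53%), and 43.2% of genes had a contrast above 0. Total RNA likewise gave 0 calls (0%) among 4194 features, with a lowest adjusted p of 0.571. It had 133 features higher (3.17%) and 106 lower (2.53%) at an unadjusted p under 0.05, against 162 and 98 by edgeR and 50 and 18 by DESeq2, which also called 0. Its median 95% interval reached 0.47 log2 units to either side. Groups stood apart upwards for 87 features (2.07%) and downwards for 71 (1.69%), and 48.5% had a contrast above 0. The genes below are those with the lowest p, and none of them passed after adjustment.

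Among genes higher in mid-length strains in polyA RNA, GRX8, a glutaredoxin, had the lowest p. With 118, 129, 147 and 156 repeats its level was 22.7, 22.1, 24.8 and 22.9 TPM, against 18.1 and 17.0 TPM with 72 and 84, and 19.9 and 18.6 TPM with 224 and 237. Every mid-length strain was above every extreme one. The contrast was 0.32 ± 0.067 (SE) on the log2 scale (limma, adjusted p = 0.928), and it was 0.34 inside CGY20 and 0.30 inside CGY24. BLS1, a subunit of the BLOC-1 complex of endosomes, had 10.1, 10.3, 13.0 and 13.2 TPM in the mid-length strains in the same order, 8.29 and 9.25 TPM in the short and 8.41 and 7.93 TPM in the long ones. The groups did not overlap, and the strains with 147 and 156 repeats were highest. MIG3, a transcriptional repressor, had 14.8 to 17.4 TPM in mid-length strains against 12.1 to 13.6 TPM, again without overlap (contrast 0.28 ± 0.075).

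HMO1 encodes a high-mobility-group protein that binds actively transcribed rDNA and many ribosomal protein genes. It had 189, 188, 202 and 190 TPM in the mid-length strains, 161 and 153 TPM with 72 and 84 repeats, and 178 and 188 TPM with 224 and 237. The short arrays were lowest, while the longest array lay at the level of the lowest mid-length strain. The contrast of 0.18 ± 0.051 was made of 0.29 against the short arrays and 0.072 against the long ones. In total RNA HMO1 ranged from 45.6 to 77.0 normalised reads in mid-length and from 41.1 to 66.6 in extreme strains, and the groups overlapped.

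The other genes of the upper end were FYV5, SOR1, ATG41 and PCL5. SOR1, a sorbitol dehydrogenase near the end of chromosome X, had the largest contrast of the 8, 0.86 ± 0.23, at a level of 3.18 to 6.07 TPM in mid-length and 1.09 to 2.89 TPM in extreme strains. FYV5 had 7.41 to 8.32 TPM against 4.34 to 6.99 TPM. PCL5 is a cyclin of the Pho85 kinase that marks the Gcn4 activator for breakdown. Its 98.9 TPM in the strain with 156 repeats lay among the extremes (86.9 to 104 TPM), whereas the other 3 mid-length strains had 119 to 125 TPM. ATG41, an autophagy gene, had 82.3 to 95.4 TPM against 68.3 to 76.6 TPM. Of the 8 genes, MIG3 (0.38 ± 0.40), PCL5 (0.19 ± 0.19) and ATG41 (0.032 ± 0.28) were also tested in total RNA besides HMO1, and in each the groups overlapped.

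**Figure D1:**
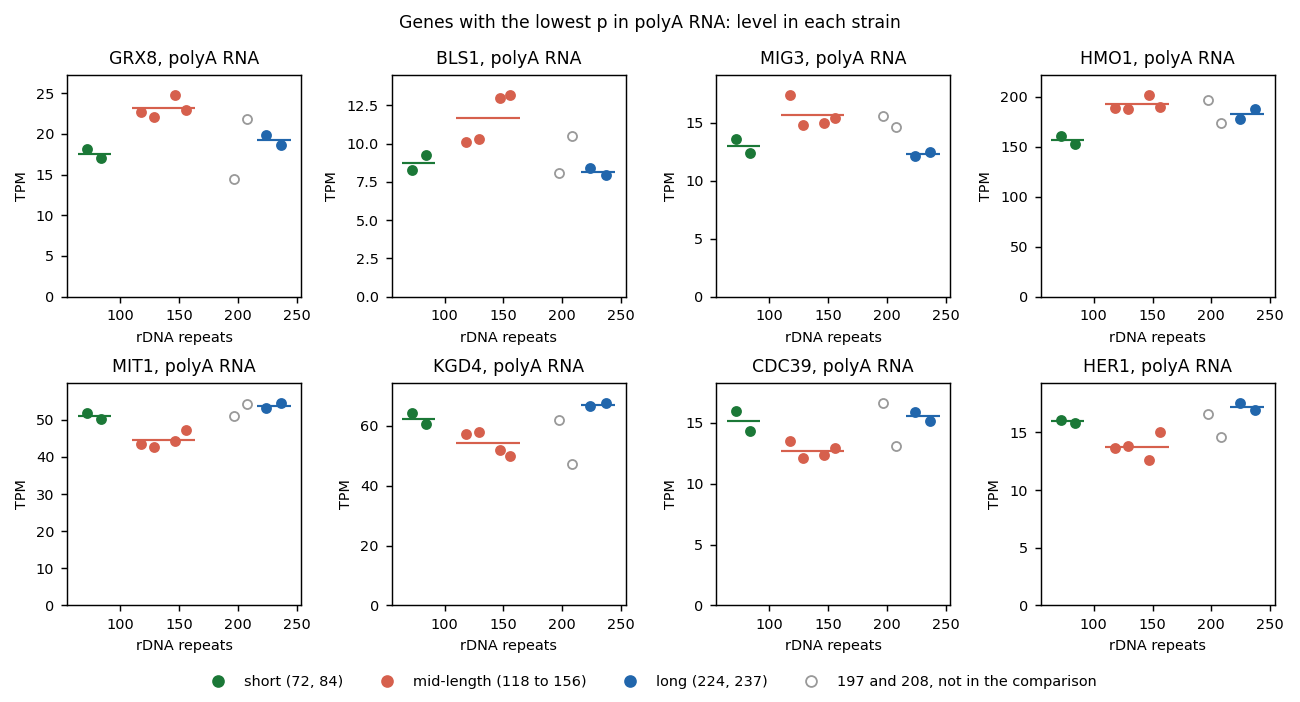
Level in TPM (linear axis from 0) against rDNA repeats for 4 of the 8 leading genes at each end in polyA RNA. Each point is 1 library, lines are group means, and open points are the strains with 197 and 208 repeats, which took no part in the comparison; the 4 mid-length strains stand apart from the extremes in each panel but that of HMO1, where the strain with 237 repeats reaches 188 TPM.

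Among genes lower in mid-length strains, MIT1, a regulator of filamentous growth, had the lowest p. Its level was 43.6, 42.7, 44.3 and 47.2 TPM in mid-length strains, 51.9 and 50.1 TPM in short and 53.3 and 54.4 TPM in long ones. All mid-length strains were below all extremes, with a contrast of -0.23 ± 0.058 (limma, adjusted p = 0.928). KGD4, a subunit of mitochondrial alpha-ketoglutarate dehydrogenase, had 57.4, 58.1, 52.1 and 50 TPM against 64.2 and 60.5 TPM in short and 66.8 and 67.5 TPM in long arrays, also without overlap (contrast -0.25 ± 0.065). CDC39 encodes the scaffold of the Ccr4-Not complex, which removes poly(A) tails. It had 12.1 to 13.5 TPM in mid-length and 14.3 to 16.0 TPM in extreme strains. HER1 (12.6 to 15.0 against 15.8 to 17.5 TPM), MAY24 (11.4 to 14.2 against 14.3 to 17.4 TPM) and PGM1, a phosphoglucomutase (67.1 to 71.4 against 73.4 to 86.1 TPM), did not overlap between the groups either. ECM21, an arrestin-related adaptor of ubiquitin ligation, had 6.53 to 7.39 against 7.49 to 8.92 TPM. DOC1, a subunit of the anaphase-promoting complex, had 3.72 to 4.47 TPM against 4.32 to 7.22 TPM, so the strain with 72 repeats lay inside the mid-length range. In total RNA, 5 of these 8 genes were tested. HER1 stood apart downwards there too (-0.35 ± 0.15). CDC39 (-0.12 ± 0.10) and MIT1 (-0.085 ± 0.14, with 71.0 to 105 against 81.3 to 97.2 reads) overlapped, and the contrasts of ECM21 (0.15 ± 0.26) and PGM1 (0.054 ± 0.14) had the other sign.

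Gene length moved with the contrast in both assays. In polyA RNA the median contrast was 0.012 among the 1396 shortest coding genes and -0.064 among the 1380 longest (1914 bp and over), where 20.4% of contrasts were above 0. Those longest genes held 95 of the 140 genes below all extremes and 3 of the 53 above them. In total RNA the median went from 0.044 in the shortest class to -0.068 in the longest. The tie of level to length differed between libraries of 1 class. The strains with 147 and 118 repeats had the lowest slopes, -0.047 and -0.018 log2 units per doubling of length in polyA RNA, and -0.052 and -0.047 in total RNA. The strain with 129 repeats had positive slopes, 0.011 and 0.0053. After the trend with length and abundance was taken out of each polyA library, 142 of 242 genes at an unadjusted p under 0.05 were higher in mid-length strains, and again 0 passed. Among the lower genes CDC39 went from -0.25 to -0.11 and HER1 from -0.26 to -0.16 under that alternative, while MIT1 (-0.21) and KGD4 (-0.26) moved by less.

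**Figure D2:**
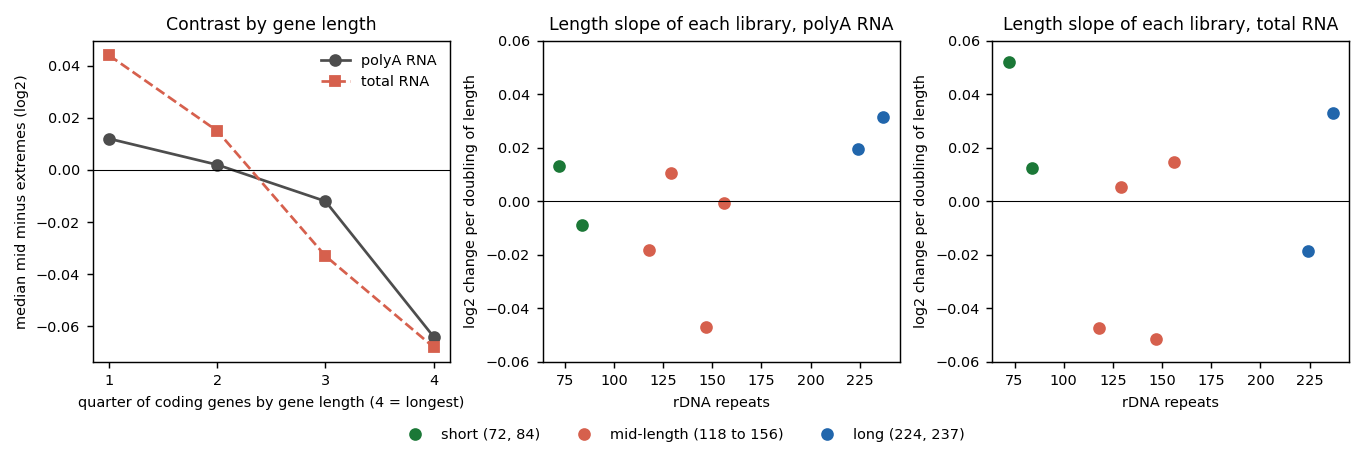
Left, median of mid-length minus extremes (log2) in 4 classes of coding genes by length, for polyA and total RNA. Middle and right, slope of each library's log2 deviations on log2 length against rDNA repeats; the median falls to -0.064 and -0.068 in the longest class, and the strain with 147 repeats has the lowest slope in both assays.

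In total RNA the lowest p belonged to snR19, the U1 RNA of the spliceosome, which pairs with the start of introns. It is shown here with snR82, snR3 and snR9, the snoRNAs with the lowest p, because the snoRNAs lay mostly on the higher side in this assay. The sequences are from the RefSeq R64 reference, which is the sacCer3 assembly, and names were matched to its annotation: snR19 at chrXIV:230105-230672 on the minus strand, snR82 at chrVII:316788-317055 on the plus strand, snR3 at chrX:663749-663942 on the plus strand and snR9 at chrXV:407948-408134 on the minus strand. Only the first 30 bases of U1 are printed, with ACTTAC, the stretch that pairs with introns, in capitals. In the snoRNAs capitals mark ACA in the last 10 bases, the box of the class of snoRNA that guides pseudouridine formation. Only the literal ACA was searched, so a sequence without capitals is not thereby placed outside that class.
snR19, first 30 bases: atACTTACcttaagatatcagaggagatca
snR82: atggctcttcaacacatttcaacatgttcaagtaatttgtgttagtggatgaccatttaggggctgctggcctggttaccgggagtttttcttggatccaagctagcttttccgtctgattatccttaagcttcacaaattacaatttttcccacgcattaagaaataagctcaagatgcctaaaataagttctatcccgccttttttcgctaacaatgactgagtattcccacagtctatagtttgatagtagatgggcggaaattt
snR3: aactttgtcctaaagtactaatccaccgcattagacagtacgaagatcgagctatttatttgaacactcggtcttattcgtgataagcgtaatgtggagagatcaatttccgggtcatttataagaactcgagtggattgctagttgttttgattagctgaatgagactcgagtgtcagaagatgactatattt
snR9: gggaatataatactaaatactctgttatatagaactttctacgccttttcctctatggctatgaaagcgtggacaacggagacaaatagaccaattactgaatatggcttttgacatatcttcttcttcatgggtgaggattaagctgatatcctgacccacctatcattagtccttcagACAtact
ACA stands in the last 10 bases of 44 of the 118 snoRNA features with coordinates (37.3%), read on the RNA strand only. A snoRNA listed as 2 features counts for each.

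U1 (snR19) had 922, 1038, 821 and 796 normalised reads (reads divided by the library's size factor) in the strains with 118, 129, 147 and 156 repeats, 766 and 777 in the short arrays and 681 and 679 in the long ones. The groups did not overlap, and the strains with 118 and 129 repeats were highest. The contrast was 0.30 ± 0.078 (limma, adjusted p = 0.571), with 0.36 inside CGY20 and 0.25 inside CGY24. Without the filter on low values U1 passed (limma, adjusted p = 0.0254), as did snR3 (limma, adjusted p = 0.037) and the exon feature of snR190 (limma, adjusted p = 0.000275). Their contrasts (0.30, 0.475 and 0.63) were the same as with the filter. What differed was the moderated spread, which was then fitted over 10199 features instead of 4194. The contrast of the snR190 exon feature was 0.81 when the strain with 72 repeats was left out. Over U1's other alternatives the adjusted p was 0.374 to 0.999, and outside the quadratic fit the contrast ran from 0.22 to 0.35. The strains with 197 and 208 repeats, which are in neither group, had 721 and 955. The U2 RNA, LSR1, had 2062 to 2289 reads in mid-length and 1736 to 2173 in extreme strains in the feature that holds nearly all of its reads, and U6 (snR6) had 11.1 to 28.0 against 18.5 to 21.4.

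The snoRNAs lay mostly on the higher side. Of 118 snoRNA features listed, 46 passed the filter on low counts, and the others were not tested. The 46 belong to 40 snoRNAs, since 6 are listed as 2 features each. None was called, 39 of the 46 had a contrast above 0 (48.5% of all features did), 16 were higher at an unadjusted p under 0.05 and 0 lower (3.17% and 2.53% of all features). The median contrast was 0.21 against -0.009 over all features tested, made of 0.15 against the short and 0.28 against the long arrays. By library, the median deviation from the 8-strain mean was -0.0060, 0.27, 0.15 and 0.098 with 118, 129, 147 and 156 repeats, 0.054 and -0.16 with 72 and 84, and -0.14 and -0.16 with 224 and 237. The strain with 118 repeats thus lay below that with 72, and the group medians overlapped. Leaving out 1 strain at a time gave medians of 0.15 to 0.27, the values inside CGY20 and CGY24 were 0.24 and 0.11, and taking out the trend with length and abundance, an alternative chosen after the data were seen, left 0.14.

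snR82 had 449, 504, 466 and 433 reads in mid-length strains, 387 and 438 in short and 365 and 346 in long arrays. Only the strain with 84 repeats reached into the mid-length range. snR3 had 139, 228, 176 and 205 reads against 170 and 125 in short and 127 and 112 in long arrays, and the strain with 72 repeats overlapped. snR9 had 101, 104, 152 and 118 reads against 88.2 and 82.2, and 81.3 and 101, and the groups touched without crossing. The groups also stood apart for the features of snR13, snR33, snR85 and snR190, named after their values were seen. The last 2 are among the 6 snoRNAs listed as 2 features each, and reads can pass from one to the other: snR190 itself held 0 reads in the strain with 156 repeats and 208 in that with 84. Summed over both features, snR190 had 449 to 553 reads in mid-length and 393 to 467 in extreme strains and snR85 had 135 to 175 against 113 to 136, and neither they nor the other 4 summed snoRNAs stood apart. In the strain with 208 repeats snR82, snR3 and snR9 had 588, 361 and 160 reads, more than any mid-length strain.

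NHP2, a core protein of the snoRNA particles that carry the ACA box, was among the leading mRNAs of total RNA. It had 60, 42.3, 56.7 and 54.5 reads in mid-length strains, 38.7 and 29.5 in short and 36.5 and 37.0 in long arrays, without overlap (contrast 0.57 ± 0.17, limma, adjusted p = 0.571). In polyA RNA it had 389 to 427 TPM against 349 to 417 TPM, and the groups overlapped. MRD1, needed for processing of pre-rRNA, had 52.0, 51.4, 50.8 and 44.5 reads against 36.9 and 42.0 in short and 21.9 and 33.3 in long arrays. Its total RNA contrast was 0.59 ± 0.17, and the difference between the assays (polyA minus total) was about as large, -0.59 ± 0.18. Over the 74 ribosome biogenesis genes, 54 had a contrast above 0 in polyA RNA (43.2% of all genes did) with a median of 0.032, and 42 in total RNA with a median of 0.020, and 0 were called in either. The median polyA contrast of the list was 0.0080 against the short and 0.063 against the long arrays, and it was 0.0090 when the strain with 224 repeats was left out. It was -0.0060 in a fit that also held the strain series. The total RNA median was -0.012 without the strain with 224 repeats. In polyA RNA BRX1, an assembly factor of the large subunit, stood apart upwards (132 to 147 against 121 to 131 TPM), and UTP10, part of the small-subunit processome, downwards (24.9 to 27.6 against 28.8 to 31.5 TPM).

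Ribosomal protein mRNAs had a contrast above 0 for 111 of 138 in total RNA and for 79 of 139 in polyA RNA. RPL39, a protein of the large subunit, had 240, 257, 278 and 255 reads in mid-length strains, 196 and 192 in short and 198 and 227 in long arrays. The groups did not overlap, and the contrast was 0.34 ± 0.095 (limma, adjusted p = 0.571). In polyA RNA its contrast was -0.0070, and the difference between the assays, -0.35 ± 0.062, had the lowest p of all genes (limma, adjusted p = 0.16). Among all features tested in total RNA 48.5% had a contrast above 0. Of the 138 ribosomal proteins 8 stood apart upwards (2.07% did) and 0 downwards, and none was called. Their median was 0.061 there and 0.0050 in polyA RNA. Without 1 strain it ran from 0.045 (without 147 repeats) to 0.095 (without 129) in total RNA, and from -0.0030 (without 147) to 0.020 (without 129) in polyA RNA. By library the median deviation in total RNA was 0.052, -0.047, 0.093 and 0.026 with 118, 129, 147 and 156 repeats, -0.073 and -0.065 in short and 0.030 and -0.033 in long arrays. The strain with 129 repeats thus lay with the extremes, and the median was 0.10 against the short arrays and 0.021 against the long ones. With the trend of length and abundance removed it was 0.036. In polyA RNA the members with the lowest p were RPS28B (3195 to 3717 TPM in mid-length and 3656 to 4112 TPM in extreme strains), RPS7B (929 to 996 against 861 to 941 TPM) and RPL7B (342 to 383 against 321 to 367 TPM), and each overlapped.

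**Figure D3:**
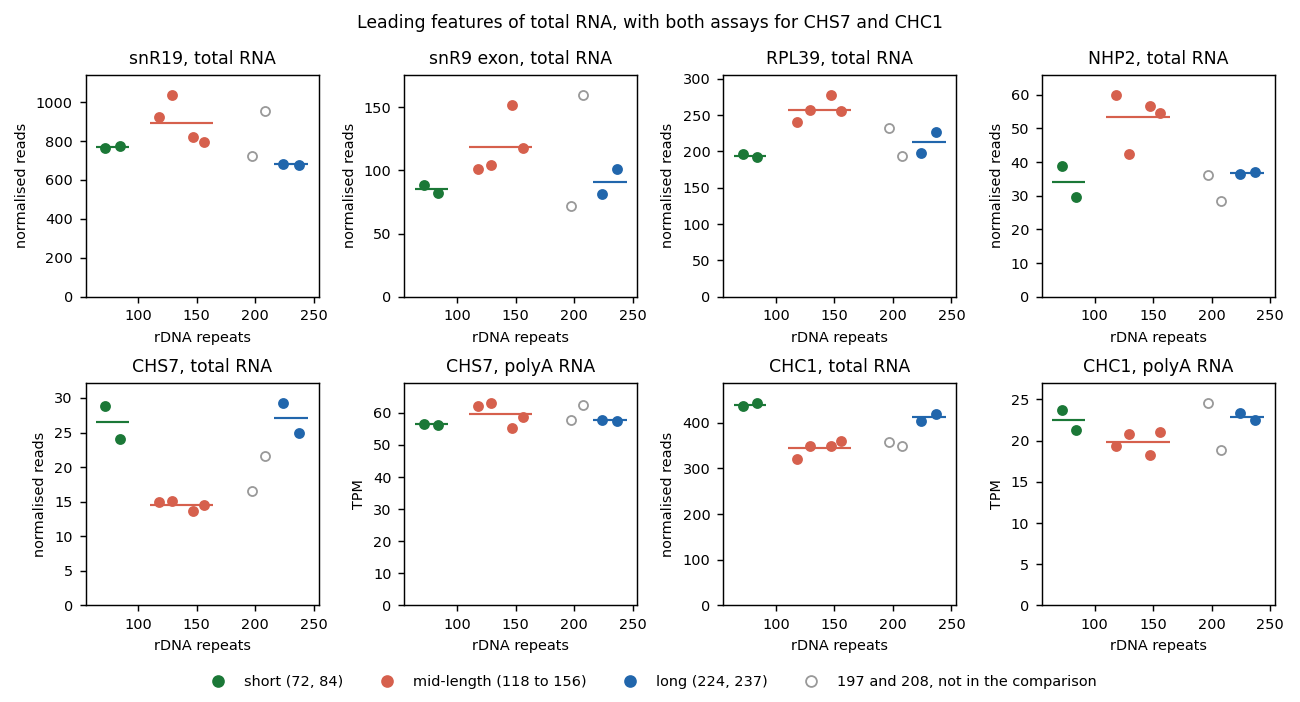
Level against rDNA repeats for leading features of total RNA (normalised reads) and, for CHS7 and CHC1, of polyA RNA (TPM), on linear axes from 0. Points are single libraries, lines group means, open points the strains with 197 and 208 repeats; CHS7 is low in the 4 mid-length strains in total RNA (13.7 to 15.1 reads) and not in polyA RNA (55.2 to 62.9 TPM).

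Further mRNAs higher in mid-length strains in total RNA were EGD2, STM1, PBP1 and KAR4. EGD2, the alpha subunit of the complex that meets new polypeptides at the ribosome, had 243, 225, 238 and 219 reads in mid-length strains, 184 and 162 in short and 194 and 191 in long arrays. STM1, a ribosome-binding protein encoded next to the rDNA array, had 765 to 873 against 658 to 733. PBP1, a partner of the poly(A)-binding protein, had 97.8 to 111 against 64.7 to 90.9. None of these groups overlapped. In polyA RNA EGD2 had 1170 to 1242 TPM against 1042 to 1195 TPM, with overlap. PBP1 had a total RNA contrast of 0.45 ± 0.13 and a difference between the assays (polyA minus total) of -0.49 ± 0.13, so its polyA contrast had the other sign. For STM1 these values were 0.25 ± 0.072 and -0.20 ± 0.061. KAR4, a transcription factor of mating and nuclear fusion, had 24.0, 11.1, 8.80 and 14.5 reads in mid-length strains, 6.30 and 7.15 in short and 3.13 and 3.70 in long arrays. These groups stood apart (1.33 ± 0.38), with the strain of 118 repeats highest. In polyA RNA KAR4 had 25.5 to 36.5 TPM against 23.1 to 31.9 TPM and overlapped.

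At the lower end of total RNA stood CHS7, an endoplasmic reticulum protein needed for export of the chitin synthase Chs3. It had 15.0, 15.1, 13.7 and 14.5 reads in mid-length strains, 28.8 and 24 in short and 29.2 and 25.0 in long arrays. The mid-length strains were close together and apart from the extremes, with a contrast of -0.83 ± 0.22 (limma, adjusted p = 0.571). In polyA RNA CHS7 had 55.2 to 62.9 TPM in mid-length and 56.2 to 57.9 TPM in extreme strains, a contrast of 0.063 ± 0.060. The difference between the assays was 0.89 ± 0.16 (limma, adjusted p = 0.16), and it passed (limma, adjusted p = 0.042) when the strains were not used as blocks. HOR7, a gene of the response to osmotic stress, had 20.0, 23.2, 16.6 and 26.7 reads against 40.5 and 42.0 in short and 24.0 and 32.4 in long arrays, and the strain with 224 repeats overlapped. YMD8 (13.1 to 22.2 against 27.0 to 31.5), SEF1 (26.0 to 29.2 against 36.5 to 56.5) and IRA1, an inhibitor of Ras (111 to 144 against 153 to 163), did not overlap. MHP1, a microtubule-associated protein (64.5 to 89.7 against 87.6 to 118), and THO2, of the mRNA export complex THO (15.0 to 30.3 against 29.7 to 40.7), each overlapped. The total RNA contrasts of YMD8, SEF1, IRA1, MHP1 and THO2 were -0.75, -0.57, -0.33, -0.45 and -0.69. Their differences between the assays (polyA minus total) were 0.78, 0.49, 0.17, 0.295 and 0.59 in the same order. The polyA contrast of YMD8 thus had the other sign.

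CHC1, the heavy chain of clathrin, was lower in mid-length strains in both assays. It had 320, 349, 350 and 359 reads against 436 and 442 in short and 403 and 420 in long arrays in total RNA. In polyA RNA it had 19.4, 20.8, 18.2 and 21.1 TPM against 23.7 and 21.3 TPM, and 23.3 and 22.5 TPM. Neither assay showed overlap. The contrasts were -0.30 ± 0.081 and -0.19 ± 0.072, and with the trend of length and abundance removed they were -0.21 and -0.072. Over the 3806 genes measured in both assays the contrasts correlated weakly (Pearson's r = 0.21, Spearman's rho = 0.23 across genes, which are not independent), and 58.4% had the same sign. The libraries of both assays come from the same strains. Of the 3806 genes 120 stood apart downwards in polyA RNA and 66 in total RNA, and 10 did so in both, 8.33% and 15.2% of them. Upwards it was 37 and 73, with 1 in both, 2.7% and 1.37% of them. CHC1, HER1 and KAP120, among the 10, are of 4962, 3741 and 3099 bp and so in the longest class in both assays. The part of gene length in this overlap was not tested.

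The one that stood apart upwards in both was GOS1, a SNARE protein of Golgi transport. It had 40.0, 38.3, 35.1 and 39.0 TPM in mid-length strains, 33.0 and 32.8 TPM in short and 33.7 and 32.9 TPM in long arrays, and 10.0 to 13.7 against 3.57 to 8.33 reads in total RNA. In the mean of both assays, in which 0 of 3806 genes (0%) passed with limma (0.781 being the lowest adjusted p, and 223 genes under 0.05 before adjustment), GOS1 had a contrast of 0.57 ± 0.13. Its neighbours by p were KAR4 (0.70 ± 0.16), CAB4 of coenzyme A synthesis (0.67 ± 0.16), NHP2 (0.31 ± 0.078), EGD2 (0.21 ± 0.054) and the tropomyosin TPM1 (0.27 ± 0.070). On the lower side stood CHS7 (-0.38 ± 0.095), the nuclear transport receptor KAP120 (-0.37 ± 0.11), CHC1 (-0.25 ± 0.072), ARF2 of vesicle budding (-0.25 ± 0.074), SVS1 (-0.25 ± 0.075) and the nucleoside diphosphate kinase YNK1 (-0.40 ± 0.12). KAP120 was lower in every mid-length strain than in every extreme one in both assays, with 13.2 to 15.1 against 15.6 to 16.9 TPM and 24.5 to 33.2 against 37.5 to 46.8 reads. CAB4 and ARF2 differed mainly in total RNA, with polyA contrasts of 0.083 and -0.018. So did KAR4 (polyA contrast 0.070), NHP2 (0.052), EGD2 (0.081), TPM1 (0.098) and YNK1 (-0.082). CHS7 had the other sign in polyA RNA (0.063 against -0.83 in total RNA). Of the genes named here only GOS1, CHC1 and KAP120 stood apart in both assays. The difference between assays was past the threshold for 0 of the 3806 genes (0%, limma, 0.16 being the lowest adjusted p, and 205 genes under 0.05 before adjustment).

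Genes tied to the rDNA itself gave no calls. SIR2, the histone deacetylase, had 13.8, 15.6, 19.4 and 16.3 TPM in mid-length strains, 11.0 and 9.81 TPM in short and 19 and 19.8 TPM in long arrays. Mid-length strains lay above the short arrays and, except for that with 147 repeats, below the long ones. This order was absent from total RNA, where SIR2 had 7.06 to 19.6 reads in mid-length strains, 10.8 and 18.8 in short and 12.5 and 13.9 in long arrays. SIR1 had 4.96 to 6.23 TPM against 6.06 to 6.69 TPM, and CDC14, the phosphatase released from the nucleolus at the end of mitosis, had 40.8 to 44.4 against 38.7 to 42.1 TPM, and both overlapped. Of the 10 Sir and nucleolar silencing genes, 5 had a polyA contrast above 0 and the median was -0.014. FOB1 had 17.1, 14.4, 12.9 and 15.1 TPM against 14.8 and 15.1 TPM, and 12.9 and 15.6 TPM, which overlapped throughout. In total RNA it had 15.0, 13.1, 12.7 and 12.2 reads against 9.90 and 8.93, and 7.30 and 10.2. All mid-length strains were higher there (contrast 0.51 ± 0.30), at a level of few reads. The list of 10 fork barrier and anchoring genes had a polyA median of -0.034, with CSM1 of the anchoring complex at 0.18 ± 0.081, LRS4 at -0.11 ± 0.073 and NUR1 at -0.11 ± 0.076. In total RNA 7 of them were tested, 2 had a contrast above 0 and the median was -0.39, between -0.48 and -0.18 without 1 strain. Over all features the median was -0.009. By library the median deviation was -0.16, -0.26, 0.097 and -0.086 with 118, 129, 147 and 156 repeats. It was 0.19 and 0.40 in short and -0.18 and 0.097 in long arrays. The long arrays thus lay within the mid-length range, and only the short arrays lay above it. Of the RNA polymerase I initiation factors HMO1 had the lowest p, followed by RRN3 (16.7 to 18.0 against 17.5 to 22.0 TPM) and UAF30 (9.02 to 14 against 12.1 to 13.8 TPM). Among 21 genes within 20 kb of the array in polyA RNA 6 had a contrast above 0, with a median of -0.058. Without 1 strain in turn the polyA medians crossed 0 in the silencing list (0.020 without 237 repeats), the fork barrier list (0.045 without 237), the initiation factors (0.043 without 237) and the flanking genes (0.0030 without 156). SPE4, for spermine synthesis, had 36 to 38.3 against 35.4 to 42.9 TPM, ACS2, an acetyl-CoA synthetase, had 184 to 204 against 191 to 229 TPM, and GID11 had 1.19 to 2.24 against 1.86 to 2.63 TPM.

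Genes of storage carbohydrates lay on the lower side in both assays. Of 16 in polyA RNA 4 had a contrast above 0 and the median was -0.12, against -0.017 over all genes. Of 11 in total RNA 2 had one, with a median of -0.26 against -0.009. None was called. By library the polyA median deviation was -0.045, -0.0090, -0.29 and 0.11 with 118, 129, 147 and 156 repeats, 0.11 and 0.13 in short and -0.10 and 0.031 in long arrays. The strain with 147 repeats was lowest and that with 156 lay among the short arrays. Without the strain with 147 repeats the polyA median was -0.043 and the total RNA median -0.14. The median length of the 16 genes was 2191.5 bp, which is in the longest class of polyA RNA. With the trend of length and abundance removed the polyA median was -0.052 and the total RNA median -0.24. GDB1, the glycogen debranching enzyme, had 3.70, 3.62, 3.0 and 3.89 TPM against 4.56 and 4.49 TPM, and 4.11 and 3.98 TPM, without overlap. GPH1, glycogen phosphorylase, had 2.56, 2.80, 1.2 and 3.24 TPM against 3.68 and 5.04 TPM, and 2.53 and 2.84 TPM. PGM2 had 7.50 to 13.1 TPM against 11.2 to 16.4 TPM, and both overlapped. In total RNA TPS1 and ATH1, of trehalose synthesis and breakdown and named after their values were seen, stood apart downwards (1.69% of all features did).

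The 36 general stress genes had a polyA median of -0.089, but this was -0.19 against the short arrays and 0.054 against the long ones, so the list's median did not lie beyond both. It was -0.043 without the strain with 84 repeats, and -0.099 in total RNA (5 of 19 above 0), where it ran from -0.25 without the strain with 72 repeats to -0.054 without that with 84. HSP26, a small heat-shock chaperone, had 11.0, 14.2, 12 and 15.3 TPM against 18.2 and 17.8 TPM in short and 14.3 and 19.3 TPM in long arrays (contrast -0.39 ± 0.12, limma, adjusted p = 0.928). The strain with 224 repeats overlapped. RTC3 had 24.5 to 32.3 against 21.5 to 51.4 TPM and GTT1, a glutathione transferase, had 49.9 to 69.4 against 64.9 to 74.4 TPM. Citric acid cycle genes had a polyA median of -0.066, with 3 of 18 above 0 (43.2% of all genes), and -0.042 without the strain with 147 repeats. CIT1, citrate synthase, stood apart downwards with 72.1 to 82.2 against 82.2 to 87.9 TPM. The other members with the lowest p, KGD1 (19.8 to 21.5 against 21.1 to 25.8 TPM) and SDH2 (39.3 to 44.0 against 42.4 to 54.9 TPM), overlapped. In total RNA CIT1 had a contrast of 0.18 ± 0.15 and the list's median was -0.032, between -0.065 without the strain with 84 repeats and -0.0040 without that with 129.

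**Figure D4:**
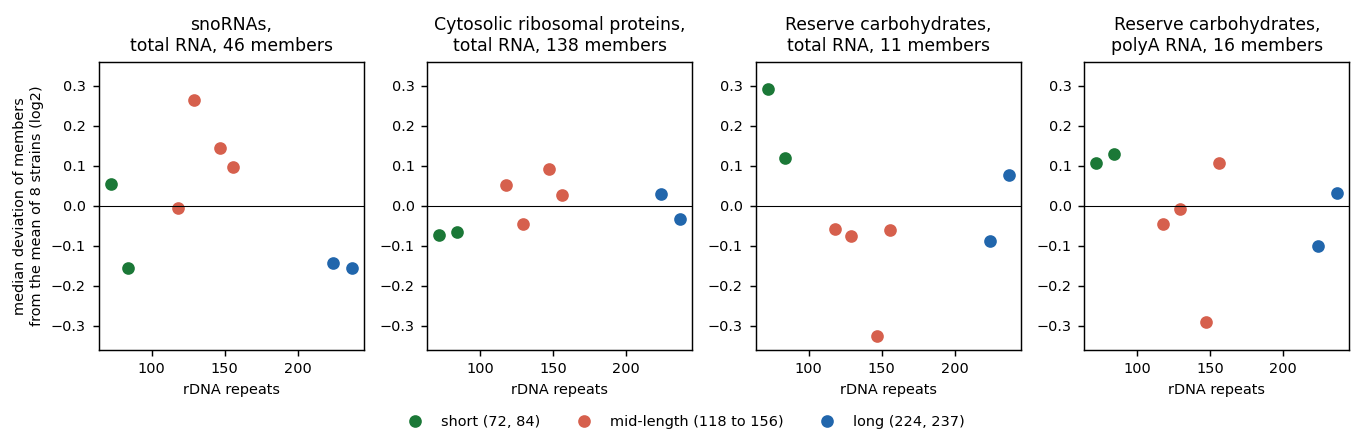
Median deviation of a list's members from their mean over the 8 strains (log2) in each library against rDNA repeats, for snoRNAs, ribosomal proteins and storage carbohydrate genes (titled reserve carbohydrates). Each point is 1 library; the strain with 118 repeats (-0.0060) breaks the upper group of the snoRNAs, and the strain with 147 repeats (-0.33 in total RNA and -0.29 in polyA RNA) is lowest in the storage carbohydrate genes.

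All 7 a-specific mating genes had a polyA contrast below 0, with a median of -0.084 (-0.039 without the strain with 237 repeats), but no member was called. In bulk RNA fewer cells of a type and less RNA per cell cannot be told apart. MFA2, which encodes the mating pheromone, had 6869, 7097, 7555 and 8656 TPM in mid-length strains, 8239 and 7946 TPM in short and 7816 and 9212 TPM in long arrays. The strain with 156 repeats exceeded all extremes but that with 237. The exporter STE6 had 44.8 to 53.9 TPM against 50.7 to 57.4 TPM and the protease BAR1 had 123 to 150 against 133 to 153 TPM. The list's median was -0.31 inside CGY20 and 0.10 inside CGY24, so the sign differed between the series.

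Mitochondrially encoded genes had the lowest polyA median of the lists with at least 3 tested members, -0.41 over the 7 tested of 18, none of them above 0. COX1, a subunit of cytochrome oxidase, had 3.30, 1.46, 1.93 and 2.70 TPM against 2.72 and 2.03 TPM in short and 7.85 and 4.40 TPM in long arrays. The strain with 224 repeats was highest, the short arrays lay inside the mid-length range, and without that strain the list's median was -0.12. These genes held 0.0028% to 0.0103% of TPM in the 8 polyA libraries, and 0.43% to 0.59% of the reads outside the rDNA in total RNA. In that assay 2 of 10 tested members had a contrast above 0. The median was -0.15, and -0.009 without the strain with 237 repeats. COX1 had 67.5 to 89.0 reads in mid-length and 66.1 to 101 in extreme strains in total RNA, with 69.9 in the strain with 224 repeats. AI4, which shares its start with COX1, and AI5_BETA are intron-encoded frames of the same locus and are not independent of it; they had 0.41 to 1.06 against 0.64 to 2.93 TPM and 1.35 to 2.39 against 2.03 to 3.39 TPM. Genes within 20 kb of a chromosome end had a median of -0.056, which was -0.035 without the strain with 147 repeats, with 60 of 172 above 0 (43.2% of all genes), 1 apart upwards and 8 downwards (0.957% and 2.53%). After SOR1 their lowest p belonged to YCR101C (2.14 to 4.02 against 4.26 to 6.22 TPM) and HYR1, a thiol peroxidase (232 to 244 against 247 to 283 TPM). In total RNA 47 of 78 frames of Ty retrotransposons had a contrast above 0 and the median was 0.070. It was 0.0010 against the short and 0.11 against the long arrays, and 0.0 without the strain with 147 repeats. Some frames hold the same values as another copy and count more than once.

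**Figure D5:**
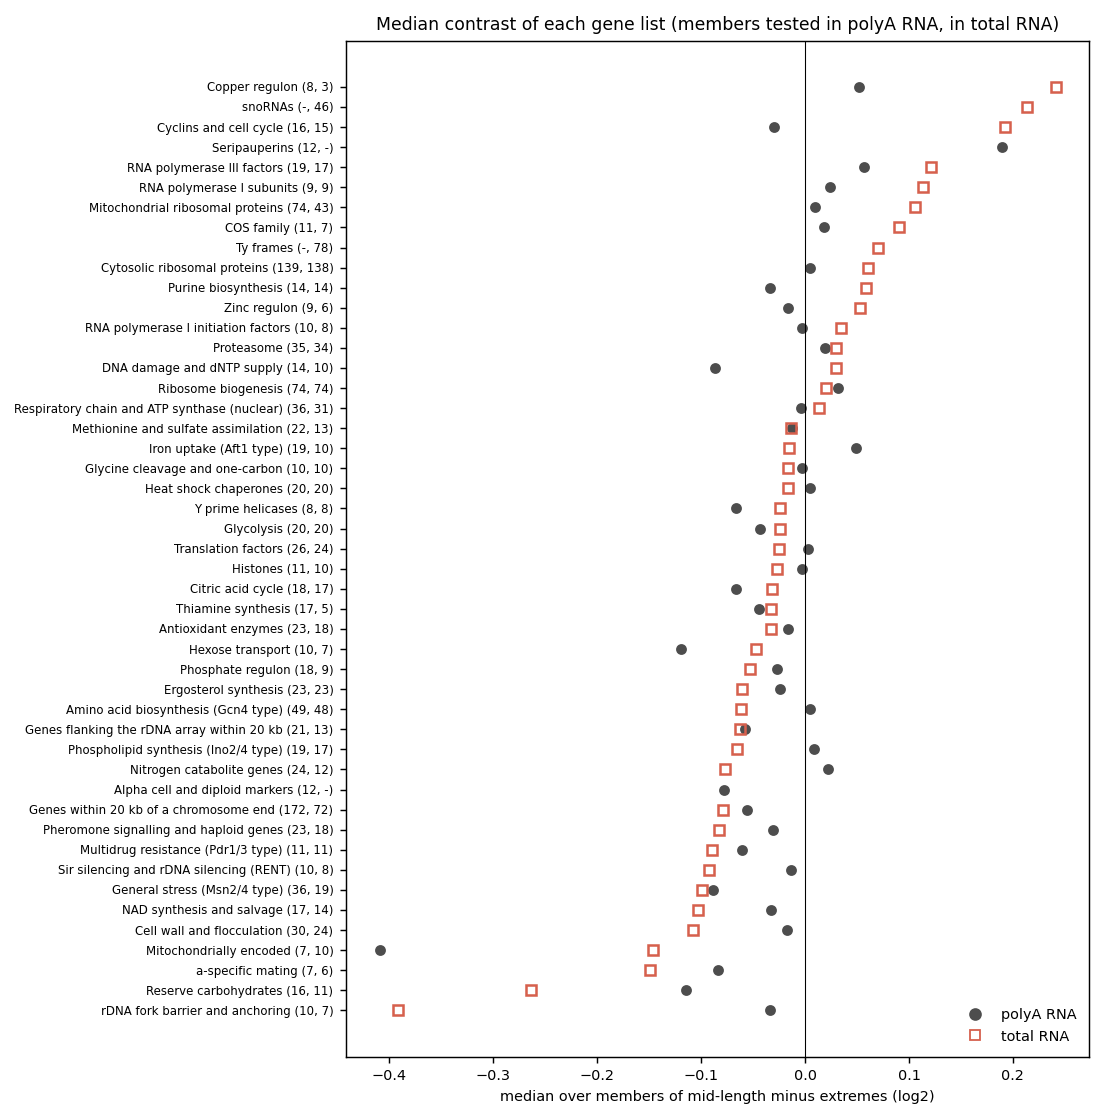
Median contrast (mid-length minus extremes, log2) of each gene list with at least 3 tested members, in polyA RNA (filled circles) and total RNA (open squares), ordered by total RNA where it was tested, with the members tested in each assay in brackets. Among lists of over 40 members the snoRNAs are highest in total RNA (0.21); storage carbohydrate genes are below 0 in both assays (-0.12 and -0.26).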

How the data were processed

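The submitters' processing notes name the sacCer3 build and the tools DESeq2, Salmon 0.8.1 and bcl2fastq. How they were run is not given in the sources used here. In the deposited polyA files the unit is TPM, scaled to 1000000 per library over 5919 entries, with 96 spike-in entries at 0. For 18222 features of total RNA a normalised signal was deposited, whose values are whole reads divided by a library size factor: 100% came out within 0.001 of a whole read. The 42 rDNA features were left out. The mean level had to reach 1 TPM in polyA RNA, and in total RNA the recovered reads had to pass filterByExpr of edgeR. limma 3.58.1 in R 4.3.3, with trend and robust moderation, was fitted to log2(value + 1) with short, mid-length and long groups, mid-length being set against the mean of the other two groups, with Benjamini-Hochberg adjustment at 0.05 and two-sided p-values that measure the spread between strains. Fold changes on this scale understate changes of low genes. edgeR 4.0.16 and DESeq2 1.42.0 on the recovered reads were alternatives and each called 0 features. The fits were tested on simulated data. Since the design foresaw edgeR only for whole counts, limma stayed the main test.

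Strain labels pair the assays, and differences between assays were taken within strains. Deviations from class means correlated at 0.048 to 0.29 between the 2 libraries of a strain, each above the highest value with another strain. In a class of 2 strains such deviations mirror each other. The strains with 72 and 84 repeats thus share the value 0.121, and those with 224 and 237 share 0.196. With 118 repeats the value was 0.048 against 0.038. The 8 values are not independent, so they cannot decide whether the libraries of a strain deviated together. Gene symbols and coordinates come from the RefSeq annotation of R64, which matched 5817 polyA and 6052 total RNA identifiers. Named are the 8 genes with the lowest p per direction and assay whose mid-length mean lies beyond both others, the 6 lowest per direction in the mean of both assays, and up to 3 members of a list by polyA p (snoRNAs by total RNA p). The groups, members and lists were chosen with earlier results of these data known. Lists are described by counts and medians beside those of all features.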

Additional observations from a re-analysis of the deposited data

Results flagged for a closer look

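Among the 4 mid-length strains, 1 value lay far from the other 3 in 6 of 89 gene values examined, and chance alone gives about 1 in 20. The strain with 147 repeats had the high value of ATG41 (95.4 TPM) and the low values of UAF30 (9.02 TPM) and AI5_BETA (1.35 TPM). The strain with 129 repeats had the high value of ECM21 (7.39 TPM) and the low value of SDH2 (39.3 TPM). The strain with 156 repeats had the low value of MRD1 in total RNA (44.5 normalised reads). The ranges of ATG41, ECM21 and MRD1 stayed apart from those of the extreme strains with these values included.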

How the results depend on the processing

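All 4 tests across genes called 0, and the count moved in these alternatives. With strain series as a covariate 1 gene was called in polyA RNA (YBR196C-A) and 3 features in total RNA, and with no filter on low values 12 in total RNA. Leaving out 1 strain gave 0 to 3 calls in total RNA (3 without the strain with 72 repeats, 1 without 224, 1 without 237), 0 to 1 in the mean of both assays (CUE4, without 224) and 0 to 1 in the difference between assays (RPL41A without 118, CUE4 without 224). With no replicate block, that is without pairing by strain, 1 gene was called in the difference (CHS7). In all other alternatives the count was 0. Among gene contrasts under alternatives 1807 kept their sign and side of the threshold, 2 passed it (U1 and snR3, with no filter) and 10 had the other sign: KAR4 in polyA RNA ran from -0.041 to 0.18 and FOB1 from -0.042 to 0.086 without 1 strain, UAF30 from -0.14 to 0.052, ARF2 was 0.0080 and FOB1 -0.033 with series as covariate, FOB1 was -0.038 in a quadratic fit over 10 strains, and LRS4 was 0.0020 with the strains of 197 and 208 repeats added to the long group. The cause was not tested. Intervals at this depth are wide in total RNA. Strain series and array class share strains, since among the strains compared CGY28 and CGY29 hold extremes only.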

Other observations

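The strains outside the comparison were read at the leading genes of polyA RNA without a test. Of the 8 genes highest in mid-length strains, 4 exceeded all extreme strains in the strain with 104 repeats and 5 in that with 166 repeats, both of low polyA recovery, and 5 each did so with 197 and 208 repeats. Of the 8 lowest, 5, 6, 0 and 4 were below all extreme strains with 104, 166, 197 and 208 repeats. These genes were chosen by the values of the same extreme strains, and the share over all genes was not counted. The counts are therefore no check of the pattern in further strains. In the strains with 197 and 208 repeats KGD4 had 61.9 and 47.2 TPM and GRX8 had 14.4 and 21.8 TPM. FYV5 had 10.0 and 8.02 TPM, both above all extreme strains.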
